A study of Mus musculus with 10 samples.

Results

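The cathepsins, a family of proteases that work mainly in the lysosome, were followed through early T cell development in culture. The 10 members described here (*Ctsa*, *Ctsb*, *Ctsc*, *Ctsd*, *Ctse*, *Ctsh*, *Ctsl*, *Ctss*, *Ctsw* and *Ctsz*) were taken by gene symbol from the 24062 genes counted in every library, and all 10 were among the 12221 genes expressed at 1 CPM or more (CPM being counts scaled to the library's reads on genes) in at least 2 libraries. Bulk RNA was sequenced from wild-type C57BL/6J mouse marrow progenitors (LSK cells, which lack lineage markers and carry SCA1 and KIT) grown with SCF, FLT-3 ligand, IL-6 and IL-11. In the no Notch control, labelled IgG, the plates carried human IgG1 in place of ligand and the cells were harvested at day 14 without a sort for a T cell stage (4 libraries, named D1, D2, R1 and R2 in the labels). All other cells were grown on a high density of immobilized Delta1ext-IgG, the extracellular part of a Notch ligand fused to IgG, and sorted as DN1 (KIT++CD44+CD25-), DN2a (KIT++CD44+CD25+) or DN2b (KIT+CD44loCD25+), with 2 libraries each (replicates 1 and 2, numbered by the earlier and the later year in their labels). IL-7 was given to the cultures that yielded both DN2 stages and not to those that yielded DN1, so stage and IL-7 cannot be told apart. Per the study's methods, replicates of a stage came from separate LSK isolates, and the 3 DN stages were sorted from each LSK replicate, so that libraries of different stages share LSK isolates. The year of the control libraries is not in the labels, so that year and the absence of ligand cannot be told apart either. The control also lacked the sort that each DN stage had, and this cannot be told apart from the absence of ligand. Per the study's methods IL-7 was added at day 14, so the DN2 cultures ran beyond the control's harvest. For DN2, IL-7 and culture time thus cannot be told apart from ligand.

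Cathepsins are made as inactive precursors, sorted to acidic endosomes and lysosomes and activated there by removal of a propeptide. Most are cysteine proteases of the papain fold, while *Ctsd* and *Ctse* encode aspartic proteases and *Ctsa* a serine carboxypeptidase. Macrophages and other phagocytes are rich in them, antigen-presenting cells use several to trim the class II invariant chain and its peptides, and *Ctsw* is known as the lymphocyte member, made in cytotoxic T cells and natural killer cells.

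Of the 10 cathepsins, 8 were lower and 1 was higher in DN1 than in the no Notch control, 9 were lower and 1 higher in DN2a, and 8 were lower and 1 higher in DN2b (threshold 0.05 on p adjusted by Benjamini-Hochberg over all 12221 genes, quasi-likelihood test of edgeR). The member that was higher in each comparison was *Ctsw*, and the 1 that did not pass in DN1 and DN2b was *Ctse*. No DN library overlapped the control for 8 members on the lower side in DN1, 9 in DN2a and 9 in DN2b, and for *Ctsw* on the higher side, where 25.5%, 32.5% and 30.8% of all genes had such groups on the lower side and 23.5%, 30.6% and 28.2% on the higher. The same threshold called 17% of all genes lower and 14.3% higher in DN1, 24.3% lower and 21.2% higher in DN2a, and 22.5% lower and 19.9% higher in DN2b. With library size alone as the scaling, the median log2FC of all genes in DN1 over the control moved by 0.26 and the share of calls that were higher went from 45.7% to 61.4%. The median log2FC of the family was -4.02 in DN1, -4.11 in DN2a and -4.16 in DN2b, where the medians of all genes were 0.01, -0.05 and -0.05. The 3 comparisons share the 4 control libraries, so their values stand side by side and are not independent of each other. RNA was measured in bulk, and fewer cells of a type and less RNA per cell cannot be told apart.

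Before the members, the cells themselves. The markers of macrophages and neutrophils were abundant in the control, where they summed to between 8374 and 17811 CPM over 9 macrophage genes and between 21268 and 72198 CPM over 9 neutrophil genes. *Lyz2*, the lysozyme of phagocytes, led the first list there with a mean of 9118 ± 3217 CPM (SD, n = 4), and *S100a9*, a neutrophil cytosolic protein, led the second with 10481 ± 5294 CPM (SD, n = 4). In DN1 the macrophage sum was 306 CPM in replicate 1 and 84.6 in replicate 2, and the neutrophil sum 2499 and 79.8 CPM. In DN2a and DN2b the macrophage sum lay between 16.1 and 53.5 CPM and the neutrophil sum between 1.53 and 20.9 CPM. *Csf1r*, the receptor that defines macrophages, had 3 and 2 counts in the DN2a libraries and 0 and 1 in DN2b, and *Cd14* had 0 counts in all 4. The early T cell list of 11 genes summed to between 3.02 and 11.2 CPM in the control and, replicate by replicate, lay at 353 to 487 for DN1, 2691 to 3575 for DN2a and 4898 to 6408 for DN2b, with *Il2ra* (CD25) at a mean of 1.18, 21.0, 1396 and 1951 CPM in that order. CD25 was itself the gate that separated DN1 from both DN2 stages, so *Il2ra*, and in part the sum, was selected to differ between them. The gate did not separate DN2a from DN2b, and the control had no such gate. The control was rich in myeloid transcripts. All 9 macrophage markers tested were lower in each DN stage than in the control, as were 8 of 9 neutrophil markers in DN1 and 9 of 9 in DN2a and DN2b. The part of the myeloid transcripts in the cathepsin differences was not tested.

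Reads counted on genes numbered between 12354635 and 35367925 per library, and 3 counts, taken as the floor of detection, corresponded to between 0.088 and 0.239 CPM. The mast cell and basophil markers summed to more in the DN stages, at 385 to 1165 CPM in DN1, 376 to 580 in DN2a and 258 to 457 in DN2b against 77.0 to 266 in the control. Most of that was *Cpa3*, a mast cell carboxypeptidase, with means of 659, 471 and 355 CPM against 36.2 (adjusted p = 0.00425, 0.0043 and 0.00755, edgeR). Over the 8 genes of that list 2, 1 and 1 were higher and 3, 6 and 7 lower in DN1, DN2a and DN2b. The dendritic cell sum lay between 192 and 224 CPM in the control and between 43.5 and 125 over the DN libraries, and the B cell sum reached 81.7 CPM in the control and 14.2 in the DN libraries. The erythroid and megakaryocyte sum was 231 to 951 CPM in the control, mostly *Pf4*, a platelet chemokine with a mean of 540 CPM, and 130 to 590 in DN1, 120 to 144 in DN2a and 20.3 to 27.9 in DN2b. Of 5 genes tested in that list 4 were higher in DN1 than in the control and *Pf4* was lower, with a median log2FC of 4.16. For 3 of these 4 (*Gata1*, *Gp1ba* and *Klf1*) the lower DN1 library lay within the control range and the rise was in DN1 replicate 1 alone, as with *Klf1*, a factor of red cell precursors, at 51.5 and 0.598 CPM in replicates 1 and 2.

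**Figure D1:**
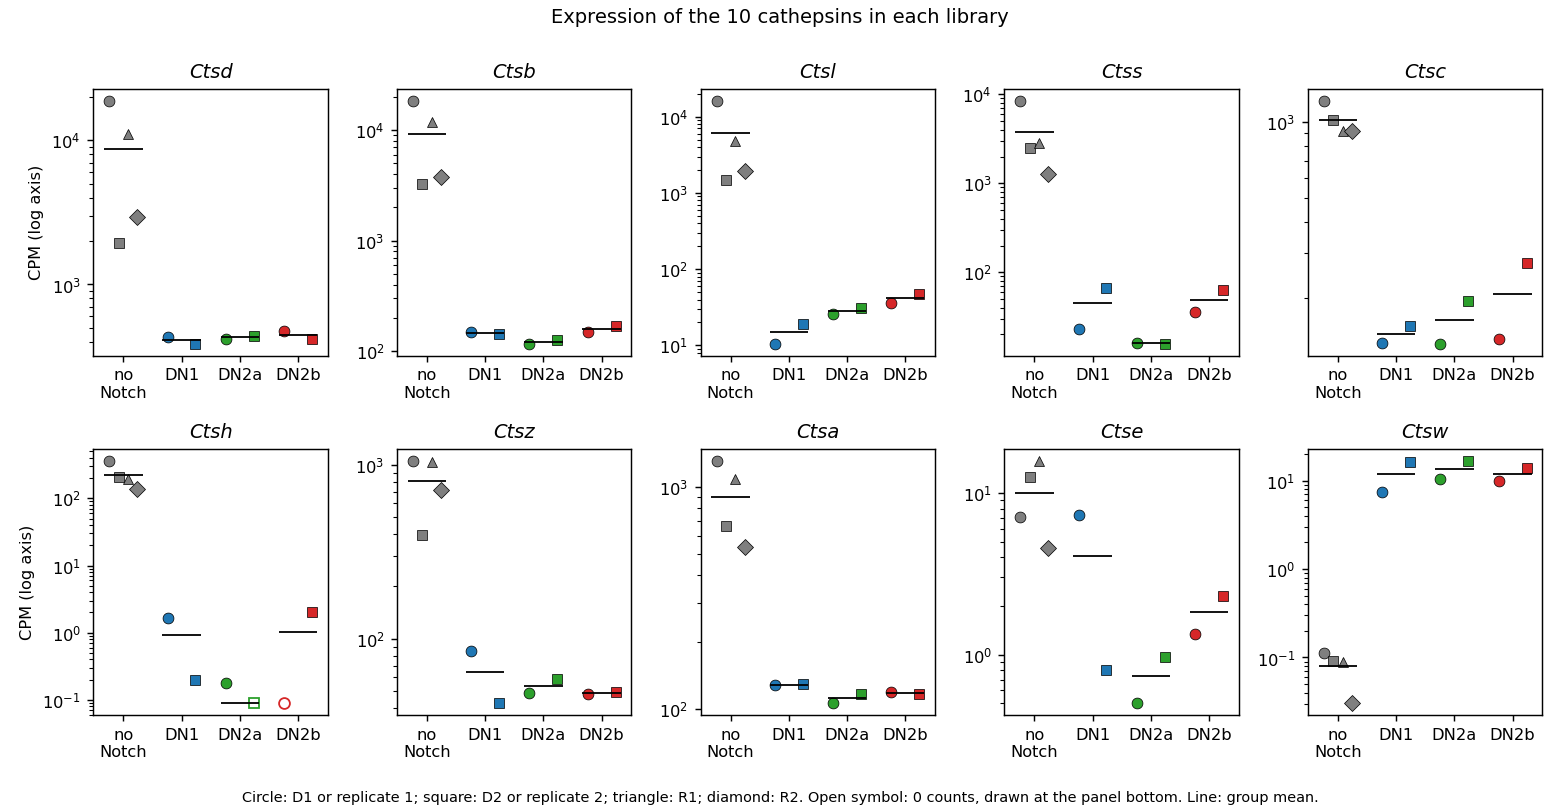
CPM of each cathepsin (log axis, a separate scale per panel) in the 4 no Notch control libraries and the 2 libraries of each DN stage, with a line at the group mean. The control lies above all DN libraries for 8 members, *Ctse* overlaps in DN1, *Ctsw* has the opposite order, and *Ctsh* had 0 counts in 1 DN2a and 1 DN2b library.

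The plot of CPM by library shows every value given next. *Ctsd* (chromosome 7, 142375911 to 142388038, minus strand, mm10) encodes cathepsin D, the main aspartic protease of lysosomes. It stood at 18629, 1923, 11017 and 2945 CPM in control libraries D1, D2, R1 and R2. In replicates 1 and 2 it was 434 and 389 CPM for DN1, for DN2a 422 and 439, and for DN2b 473 and 416. All 6 DN libraries lay below the lowest control library and within a narrow range, while the control itself spread 9.69-fold. The log2FC over the control was -4.39 ± 0.97 (SE, adjusted p = 0.00977) in DN1, -4.33 ± 0.97 (adjusted p = 0.00642) in DN2a and -4.28 ± 0.96 (adjusted p = 0.00729) in DN2b by edgeR's quasi-likelihood test. Each of these calls was lost when either library of that DN stage was left out, with adjusted p between 0.0537 and 0.0757 and log2FC between -4.47 and -4.18. Without control D1 the log2FC was -3.69, -3.63 and -3.58. Against control libraries D2 and R2 alone, a choice made after seeing the data, the log2FC was -2.57, -2.51 and -2.46 in the 3 stages (adjusted p = 0.00392, 0.00267 and 0.00267, edgeR). *Ctsd* was still the cathepsin with the highest level in every DN library, whether CPM was divided by the length of the transcript or by its coding length. Per kilobase of transcript the means of DN1, DN2a and DN2b were 194, 202 and 209 CPM.

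*Ctsb*, *Ctsl* and *Ctss* encode cysteine endopeptidases. Cathepsin B also cuts dipeptides from the carboxyl end of its substrates, and cathepsins L and S are best known for trimming the invariant chain, the latter in macrophages, dendritic cells and B cells. *Ctsb* (chromosome 14, 63122462 to 63145923, plus strand) was measured at 18244, 3239, 11806 and 3724 CPM in the control libraries D1, D2, R1 and R2. In DN1 its replicates 1 and 2 gave 149 and 141 CPM, while DN2a gave 117 and 127 and DN2b 148 and 168. The groups were far apart, with the highest DN library at 168 CPM and the lowest control library at 3239. In the fit it was 63.7-fold lower in DN1, 76.0-fold lower in DN2a and 58.6-fold lower in DN2b, with adjusted p of 0.00174, 0.000878 and 0.00111 (edgeR). Those values were -5.99, -6.25 and -5.87 as log2FC, and -4.59, -4.85 and -4.47 against D2 and R2 alone. About 16.3% of its exonic bases are shared with *Fdft1* on the opposite strand, and the strand setting of the counting is not given in the sources used here.

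*Ctsl* (chromosome 13, 64359337 to 64370890, minus strand) had the widest control spread of the family, 10.9-fold, at 15923, 1458, 4856 and 1961 CPM in D1, D2, R1 and R2. Replicates 1 and 2 of DN1 were at 10.6 and 19.0 CPM, those of DN2a at 26.1 and 30.7, and those of DN2b at 36.4 and 46.9. It was lower than the control by a log2FC of -8.67 ± 1.31 (SE) in DN1, -7.74 ± 1.26 in DN2a and -7.18 ± 1.23 in DN2b, with adjusted p of 0.00189, 0.00153 and 0.00202 (edgeR). Without control D1 these became -7.55, -6.61 and -6.05, and against D2 and R2 alone -6.86, -5.92 and -5.37. Within the DN stages no 2 groups overlapped for *Ctsl*, DN1 being lowest and DN2b highest. None of these steps passed the test. The log2FC was 0.94 (95% interval -1.25 to 3.13) in DN2a over DN1, 0.55 (-1.62 to 2.72) in DN2b over DN2a and 1.49 (-0.72 to 3.70) in DN2b over DN1. Groups did not overlap for 43.4%, 30.4% and 42.7% of all genes in those comparisons.

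*Ctss* (chromosome 3, 95526786 to 95556403, plus strand) was at 8379, 2485, 2870 and 1258 CPM in the 4 controls. DN1 replicates 1 and 2 were at 22.9 and 66.9 CPM, DN2a at 16.0 and 15.8, and DN2b at 36.2 and 62.7. It was lower than the control in all 3 stages, by 83.5-fold in DN1, 236-fold in DN2a and 75.8-fold in DN2b, with adjusted p of 0.00211, 0.000671 and 0.00139 (edgeR). On the log2 scale these were -6.38, -7.88 and -6.24, and they became -5.62, -7.12 and -5.48 without control D1, while that of DN1 became -7.35 without DN1 replicate 2. Against D2 and R2 alone they were -5.39, -6.89 and -5.25. DN2a held the lowest value of either replicate number. The difference between DN2a and DN1 did not pass the test, at a log2FC of -1.50 (95% interval -3.35 to 0.36), nor did that between DN2b and DN2a, at 1.64 (-0.23 to 3.50).

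*Ctsc*, *Ctsh* and *Ctsz* encode cysteine exopeptidases. Cathepsin C removes dipeptides from the amino end and activates many serine proteases of granules. *Ctsc* (chromosome 7, 88278085 to 88310888, plus strand) was the most even of the family in the control, at 1206, 1015, 921 and 921 CPM in D1, D2, R1 and R2. DN1 replicates 1 and 2 were at 132 and 155 CPM, DN2a at 132 and 195, and DN2b at 138 and 275, so that replicate 2 was the higher one at each stage. The log2FC over the control was -2.82 ± 0.36 (SE, adjusted p = 0.000935) in DN1, -2.64 ± 0.36 (adjusted p = 0.000671) in DN2a and -2.30 ± 0.35 (adjusted p = 0.00118) in DN2b by edgeR. In DN2a and DN2b these were the smallest changes among the members that passed the test, and in DN1 only that of *Ctsa* was smaller.

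*Ctsh* (chromosome 9, 90054152 to 90076089, plus strand) encodes cathepsin H, which acts mainly as an aminopeptidase. The control libraries held 6477, 4466, 6664 and 4597 counts of it (363, 206, 196 and 140 CPM). The DN libraries held next to none, with 44 and 4 counts for DN1 replicates 1 and 2, 5 and 0 for DN2a, and 0 and 26 for DN2b. On the CPM scale these were 1.63 and 0.199, 0.179 and 0, and 0 and 2.07. *Ctsh* was lower in each stage, with adjusted p of 0.00282, 0.000931 and 0.00194 (edgeR) and fitted log2FC of -7.89, -10.87 and -7.82, whose size depends on few counts. Without DN1 replicate 1, DN2a replicate 1 or DN2b replicate 2, the log2FC of the stage concerned was -10.11, -15.26 or -15.36, the last 2 against a lone library with 0 counts. DN1 replicate 1, which had the higher *Ctsh* count, was also the DN1 library with the higher myeloid marker sums, and likewise DN2b replicate 2, with all 26 counts of its stage, had a macrophage sum of 53.5 CPM against 19.9 in replicate 1. In DN2a the 5 counts were in replicate 1, where the sum was 16.1 CPM against 22.9. The DN gates asked for KIT, which most mature macrophages and neutrophils lack. The part of those cells in the counts was not tested.

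*Ctsz* (chromosome 2, 174427493 to 174439039, minus strand) encodes cathepsin X, a carboxypeptidase. It was at 1053, 394, 1043 and 717 CPM in the control libraries. DN1 replicates 1 and 2 were at 85.4 and 42.7 CPM, DN2a at 48.8 and 58.8, and DN2b at 47.9 and 49.2. Every DN library was under the lowest control, and the stages were close to each other except for DN1 replicate 1. The log2FC over the control was -3.64 ± 0.50 (SE, adjusted p = 0.00132) in DN1, -3.90 ± 0.51 (adjusted p = 0.000593) in DN2a and -4.04 ± 0.51 (adjusted p = 0.000551) in DN2b by edgeR, and -4.23 in DN1 without DN1 replicate 1.

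*Ctsa* (chromosome 2, 164832873 to 164841032, plus strand) encodes a serine carboxypeptidase that also shields a beta-galactosidase and a neuraminidase in the lysosome. It stood at 1310, 670, 1085 and 534 CPM in D1, D2, R1 and R2, and at 128 and 129 in DN1 replicates 1 and 2, 106 and 117 for DN2a, and 119 and 116 for DN2b. All 6 DN values lay under the lowest control value, and they differed little from each other. It was 7.00-fold lower than the control in DN1, 8.06-fold lower in DN2a and 7.64-fold lower in DN2b, with adjusted p of 0.00147, 0.000662 and 0.00075 (edgeR). *Neurl2* and *Pltp* on the opposite strand share 21.7% of its exonic bases.

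*Ctse* (chromosome 1, 131638306 to 131675505, plus strand) encodes an aspartic protease of endosomes. Its control level was the lowest of the 9 members other than *Ctsw*, at 7.05, 12.5, 15.8 and 4.58 CPM in the control libraries. DN1 replicate 1 was at 7.34 CPM (198 counts) and replicate 2 at 0.797 (16 counts), DN2a at 0.501 and 0.965, and DN2b at 1.33 and 2.31. DN1 replicate 1 lay inside the control range, and the other 5 DN libraries lay below it. *Ctse* was lower in DN2a (log2FC -3.79 ± 0.998 SE, adjusted p = 0.0134, edgeR). In DN1 the log2FC was -1.29 ± 0.84 (adjusted p = 0.271) and in DN2b -2.45 ± 0.91 (adjusted p = 0.0552). Which of these passed turned on single libraries. Without DN1 replicate 1 the DN1 value was -3.64 with an adjusted p of 0.0314, and without DN2a replicate 1 or 2 the DN2a adjusted p was 0.113 or 0.0596 (edgeR). In DN2b the adjusted p was 0.00974 by DESeq2, 0.0233 with only the groups compared, and 0.0176 or 0.017 without DN1 replicate 1 or 2. In DN1 replicate 1 the neutrophil markers summed to 2499 CPM, against 79.8 in replicate 2, the mast cell and basophil markers to 1165 against 385, and the erythroid and megakaryocyte markers to 590 against 130. The part of these cells in *Ctse* was not tested.

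*Ctsw* (chromosome 19, 5465043 to 5468507, minus strand) went the other way. The control libraries held 2, 2, 3 and 1 counts of it (0.112, 0.0922, 0.088 and 0.0305 CPM), all at or under the floor. DN1 held 199 and 327 counts (7.37 and 16.3 CPM), DN2a 290 and 225 (10.4 and 16.7 CPM), and DN2b 148 and 176 (9.88 and 14 CPM). Every DN library was above every control library, and replicate 2 was the higher at each stage in CPM. The ratio of pooled counts to the control was scaled to library sizes corrected by TMM, as the CPM values were. It was 149 in DN1 (95% counting interval 74.9 to 346), 165 in DN2a (83.3 to 385) and 156 in DN2b (78.4 to 365). These intervals cover counting error only. The adjusted p was 8.96e-05, 5.10e-05 and 4.21e-05 by edgeR's quasi-likelihood test. The fitted log2FC of 7.16, 7.35 and 7.18 became 6.15, 6.34 and 6.16 with a prior count of 2, and that of DN1 was 6.49 without DN1 replicate 2.

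The natural killer and cytotoxic markers, which could accompany *Ctsw*, summed to between 166 and 239 CPM in the DN libraries and to 13.1, 187, 15.1 and 43.3 CPM in D1, D2, R1 and R2. Nearly all of that sum was *Nkg7*, a granule membrane protein, at a mean of 163, 202 and 226 CPM by stage. Of the 8 genes 3 were expressed above the filter, and 1 of these, *Klrd1*, was higher in each stage. *Klrd1*, a receptor chain of natural killer cells, ranged from 0.244 to 0.737 CPM in the control and from 1.04 to 5.94 CPM over the DN libraries, with no overlap (log2FC 2.65, 3.34 and 3.29, adjusted p = 0.0254, 0.00647 and 0.00779, edgeR). *Klrb1c*, another such receptor, had means of 0.216 CPM in the control and 1.71, 2.85 and 2.34 by stage (adjusted p = 0.145, 0.0639 and 0.085, edgeR), and *Nkg7* did not pass either (adjusted p = 0.271, 0.148 and 0.119). The median log2FC of the 3 was 2.65, 3.34 and 3.29. The other markers were scarce. *Ncr1*, which defines natural killer cells, lay between 0 and 1.11 CPM over the DN libraries, *Eomes* between 0 and 0.259, and *Prf1* (perforin) between 0 and 0.852 with 0 counts in DN2a. The DN gates asked for KIT, which most mature natural killer cells lack. The part of such cells in the *Ctsw* counts was not tested.

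**Figure D2:**
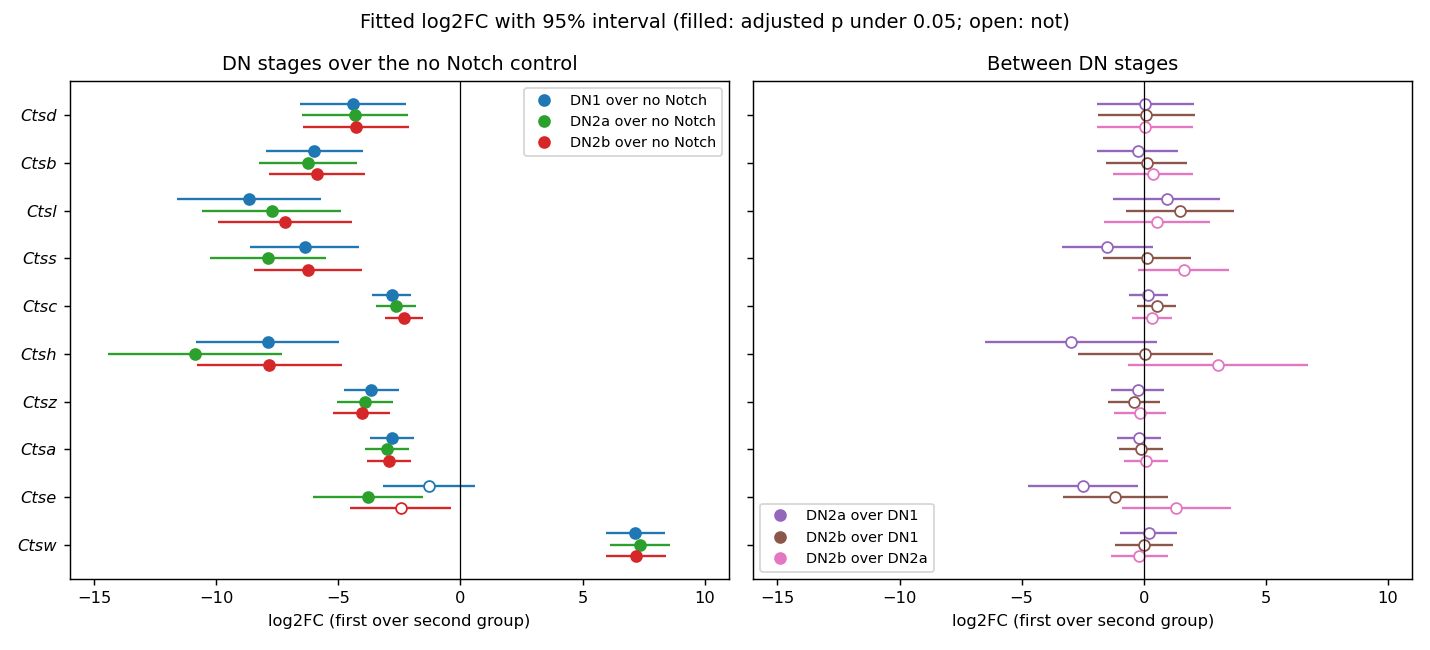
Fitted log2FC of each cathepsin with its 95% interval, for the DN stages over the no Notch control (left) and between DN stages (right). Filled points passed an adjusted p of 0.05. In the left panel 9 members lie left of 0 and *Ctsw* lies right of it, and in the right panel no point is filled.

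Between the DN stages no cathepsin differed at an adjusted p under 0.05 by edgeR in DN2a over DN1, DN2b over DN1 or DN2b over DN2a, and DESeq2 called 0 as well. At an unadjusted p under 0.05 edgeR gave 1 (*Ctse* in DN2a over DN1, log2FC -2.50 with a 95% interval of -4.76 to -0.24), 0 and 0. Over all genes the adjusted threshold called 0.401%, 1.91% and 0% in these comparisons, so that 0 of 10 is near the background. The plot of log2FC with intervals shows how wide the room left by 2 libraries a stage was. The narrowest intervals in DN2b over DN1 were those of *Ctsc* (0.52, -0.28 to 1.33) and *Ctsa* (-0.13, -1.02 to 0.77), and the widest was that of *Ctsh* (0.07, -2.70 to 2.83). The median log2FC of the family was -0.23, 0.09 and 0.36, beside -0.03, -0.02 and 0.00 for all genes. Taken within each replicate number, the differences had the same sign for 6, 4 and 7 of the 10 members. With library size alone as the scaling the median of all genes moved by -0.20 in DN2a over DN1 and -0.19 in DN2b over DN1, and the sign of several of these small values changed with it.

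**Figure D3:**
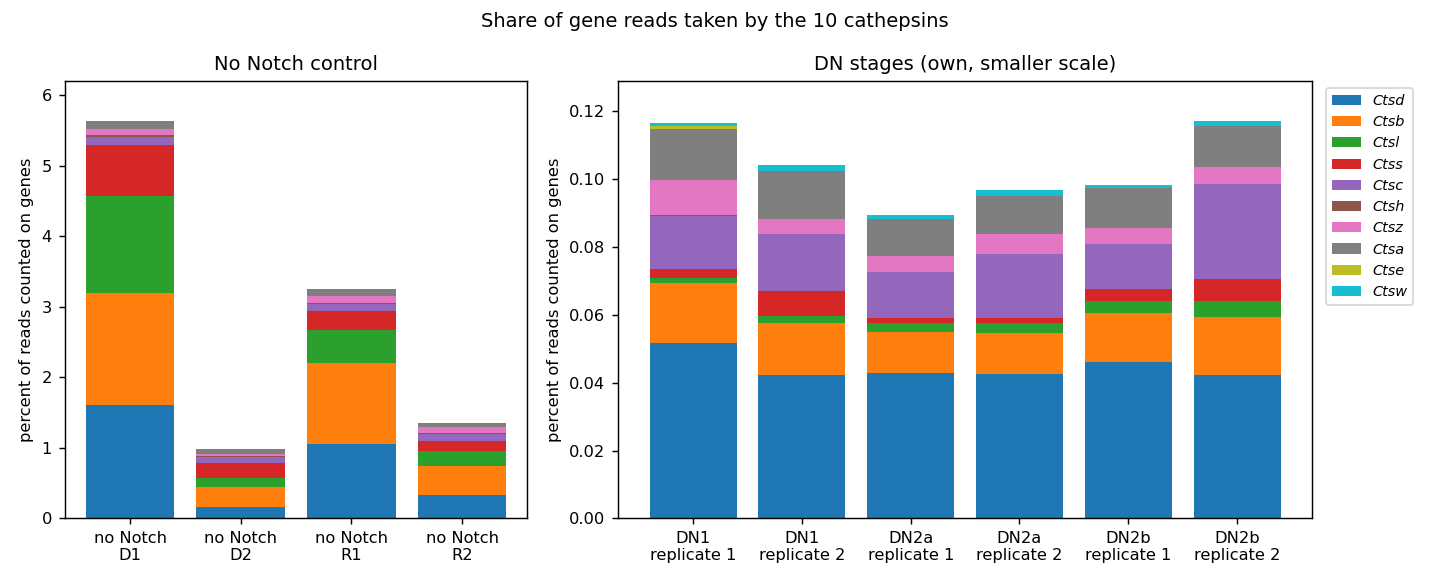
Share of all reads counted on genes that the 10 cathepsins took (percent, stacked by gene), for the control libraries on the left and the DN libraries on the right on a smaller scale. The control libraries lie between 0.978% and 5.64%, and the DN libraries between 0.0894% and 0.117%.

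Together the 10 genes took 5.64%, 0.978%, 3.26% and 1.35% of the gene reads in control libraries D1, D2, R1 and R2, a mean of 2.81% ± 2.13 (SD, n = 4). Their share was 0.11% ± 0.00877 for DN1, 0.0931% ± 0.0052 for DN2a and 0.108% ± 0.0133 for DN2b (SD over 2 libraries). The stacked plot shows that the makeup differed too. *Ctsb*, *Ctsd*, *Ctsl* and *Ctss* made up between 79.9% and 94.0% of the family's reads in the control libraries and between 60.2% and 68.7% in the DN libraries. Among these 4, *Ctsb* was 28.0 to 34.9% of the family's reads in the control and 12.7 to 15.2% in the DN libraries, *Ctsl* 12.8 to 24.5% and 1.08 to 4.07%, and *Ctss* 8.49 to 21.8% and 1.58 to 6.96%. *Ctsd* had the opposite order, at 16.9 to 32.6% in the control and 36.1 to 48.0% in the DN libraries, and so did *Ctsc*, at 1.85 to 8.90% and 13.5 to 23.9%. None of these 5 ranges overlapped between control and DN libraries. These shares are a description, and no test was made on them.

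Among the controls, libraries D1 and R1 stood above D2 and R2 for 6 of the 10 members (*Ctsa*, *Ctsb*, *Ctsd*, *Ctsl*, *Ctss* and *Ctsz*), a split made after seeing the values, where 19.5% of all genes had that order. The sum of the macrophage markers had the same order, at 13158, 12908, 17811 and 8374 CPM in D1, D2, R1 and R2, although D1 and D2 lay close together. The neutrophil sum did not, at 25607, 72198, 40348 and 21268 CPM. The share of tallied reads that aligned to more than 1 place was 16.5% and 16.4% in D1 and R1, and 22.5% and 21.5% in D2 and R2. The part of the markers and of these reads in the difference was not tested. The members that were lower in each comparison were also lower against D1 and R1 alone and against D2 and R2 alone (adjusted p under 0.05, edgeR), except *Ctse* in DN2a against D2 and R2 (adjusted p = 0.0508). The split was chosen on the members' own values, so these p-values are a description and add nothing to the calls above.

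Promoters are printed from RefSeq on GRCm38.p6 (mm10), from 250 bases before the start site to 50 after it, 5′ to 3′ on the gene's strand. The table used held 7 such windows for 6 of the members, and none was matched for *Ctsb*, *Ctse*, *Ctsh* and *Ctsw*. The 3 windows that hold CACGTG are shown, with that of *Ctss*, which had one of the larger falls, and they were chosen after the motifs had been searched. Capitals mark the letters CACGTG, the core recognised by TFEB, TFE3 and MITF, which drive lysosomal genes, and GAGGAAG or its reverse complement CTTCCTC, a core of the myeloid ETS factor PU.1.
Ctsd, chr7:142387778-142388077, minus strand: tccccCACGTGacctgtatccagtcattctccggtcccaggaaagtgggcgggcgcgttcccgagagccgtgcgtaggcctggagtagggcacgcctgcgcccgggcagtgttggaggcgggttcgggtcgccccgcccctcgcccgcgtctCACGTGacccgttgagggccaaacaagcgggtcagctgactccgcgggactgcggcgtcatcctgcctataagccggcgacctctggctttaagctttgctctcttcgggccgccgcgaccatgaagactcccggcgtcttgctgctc
Ctsa, second start site, chr2:164833523-164833822, plus strand: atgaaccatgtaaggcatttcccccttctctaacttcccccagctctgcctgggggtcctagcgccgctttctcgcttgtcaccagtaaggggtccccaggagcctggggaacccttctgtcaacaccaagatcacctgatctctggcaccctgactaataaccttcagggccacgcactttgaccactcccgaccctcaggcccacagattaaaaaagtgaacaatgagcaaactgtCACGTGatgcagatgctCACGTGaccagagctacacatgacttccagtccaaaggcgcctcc
Ctsl, chr13:64370471-64370770, minus strand: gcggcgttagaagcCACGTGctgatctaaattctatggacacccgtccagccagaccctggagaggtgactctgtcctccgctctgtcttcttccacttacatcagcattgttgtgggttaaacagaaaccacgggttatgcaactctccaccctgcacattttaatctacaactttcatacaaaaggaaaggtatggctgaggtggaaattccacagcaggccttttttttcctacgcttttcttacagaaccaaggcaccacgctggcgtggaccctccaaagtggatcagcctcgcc
Ctss, chr3:95526536-95526835, plus strand: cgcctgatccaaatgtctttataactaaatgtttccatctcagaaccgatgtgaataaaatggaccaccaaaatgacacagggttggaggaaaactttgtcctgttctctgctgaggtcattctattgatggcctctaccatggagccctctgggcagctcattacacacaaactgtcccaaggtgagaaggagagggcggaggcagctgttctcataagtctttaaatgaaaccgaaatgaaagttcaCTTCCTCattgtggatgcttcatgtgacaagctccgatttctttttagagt

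CACGTG stood 2 times in the *Ctsd* window, with its first base at -245 and -98 from the start site, 2 times in the second *Ctsa* window, at -12 and 5, and once in that of *Ctsl*, at -236. The *Ctsl* window lies wholly within the annotated gene (64359337 to 64370890), so its start site and its CACGTG lie downstream of the annotated 5′ end. Both strands were searched, and CACGTG is its own reverse complement. Of 32851 promoter windows of the same length, 7.15% held CACGTG and 0.594% held it 2 or more times. In its longer form CACGTGAC or GTCACGTG, which overlaps the shorter motif, it was found 2 times each in *Ctsd* and *Ctsa* and in 2.25% of all windows. GAGGAAG or CTTCCTC was found in the windows of *Ctsc*, 2 times at -197 and -150, and of *Ctss*, at -1, and in 13.6% of all windows. The *Ctsz* window and the first *Ctsa* window (chr2:164832622-164832921) held none of these motifs. The observed over expected CpG ratio was 0.972 in the *Ctsd* window, 0.38 in that of *Ctsa* printed here, 0.545 in that of *Ctsl* and 0.344 in that of *Ctss*, against a median of 0.384 over all windows. A match is a description of the letters and not of binding.

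The genes around the cathepsins were read from 7 lists. Over all genes 17%, 24.3% and 22.5% were called lower than the control in DN1, DN2a and DN2b. The shares called higher were 14.3%, 21.2% and 19.9%. TFEB, TFE3 and MITF are in the list of 20 genes for cathepsin processing, sorting and lysosome control, of which 13 were lower in DN1, 17 in DN2a and 17 in DN2b than in the control, and none higher (edgeR, adjusted p under 0.05). The medians of that list were -1.80, -3.17 and -2.81 in log2FC. *Lgmn*, the asparaginyl endopeptidase that processes several cathepsins, was at 856 ± 719 CPM (SD, n = 4) in the control and 10.8 ± 3.9 (SD, n = 2) in DN2b, a log2FC of -6.31 (adjusted p = 0.00205, edgeR). *Mitf* fell from 25.7 ± 13.7 CPM to 0.452 ± 0.261 (log2FC -5.83, adjusted p = 0.00161, edgeR), but did not pass in DN1 (log2FC -2.06, adjusted p = 0.0565). *Cd63*, a tetraspanin of lysosomal membranes, fell from 561 ± 179 to 12.4 ± 9.95 CPM (log2FC -5.51, adjusted p = 0.00178, edgeR), and did not pass in DN1 either (log2FC -1.48, adjusted p = 0.146). Leaving out 1 library moved these values in DN2b to -5.60 for *Lgmn* without control D1, to -6.55 for *Mitf* without DN2b replicate 2, and to between -6.71 and -4.85 for *Cd63* without a DN2b library. *Tfeb* and *Tfe3*, named here after their values were seen because their motif is printed, were lower in all 3 stages. In DN1, DN2a and DN2b the log2FC of *Tfeb* was -3.02, -3.70 and -3.78 and that of *Tfe3* -2.14, -3.09 and -3.03.

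Other hydrolases of the lysosome were lower in the DN stages as well. Of 29 tested, 21, 22 and 22 were lower in DN1, DN2a and DN2b and 0 were higher, with medians of -1.95, -2.13 and -2.09. *Arsb* and *Hexa*, which break down glycosaminoglycans and gangliosides, had log2FC of -4.44 and -4.39 in DN2b with adjusted p of 0.00174 and 0.000518 (edgeR), and that of *Arsb* was -3.72 without control D2. *Hexa*, for example, was at 812 ± 420 CPM (SD, n = 4) in the control and 38.8 ± 0.912 (SD, n = 2) in DN2b. The proton pump that acidifies the lysosome moved less, with 12, 11 and 11 of 17 vacuolar ATPase genes lower, none higher, and medians of -1.34, -1.07 and -1.07. Its *Atp6v0d2* subunit, known from macrophages and osteoclasts, was at 274 ± 388 CPM in the control and 0.293 ± 0.0363 in DN2b (log2FC -9.85, adjusted p = 0.00422, edgeR), and *Atp6v0a1* and *Atp6v1b2* were lower by a log2FC of -5.15 and -2.33. Control D1 held most of the *Atp6v0d2* reads, and without it the control mean was 82.2 CPM and the log2FC -8.12 (adjusted p = 0.00153, edgeR). That of *Atp6v0a1* was -4.51 without D1, and its call was lost without DN2b replicate 1 (adjusted p = 0.0538).

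Of 13 other cathepsin genes, 4 were expressed above the filter and 2 were lower in each stage. These were *Ctsg*, a serine protease of neutrophil granules, at 1209 ± 773 CPM (SD, n = 4) in the control and 8.35 ± 0.112 (SD, n = 2) in DN2b, and *Ctsk*, the osteoclast cathepsin, at 13.7 ± 13.4 and 0.199 ± 0.281 CPM. In DN2b the 5 counts of *Ctsk* were all in replicate 2. The *Ctsk* call was lost without DN2b replicate 1 (log2FC -5.08, adjusted p = 0.068, edgeR), and without control D1 its log2FC went from -6.13 to -5.20. The medians over the 4 genes, with those at the floor set to their bound, were -3.94, -4.51 and -4.08. The cystatins and stefins, inhibitors of cysteine cathepsins, had 2, 7 and 6 of 9 tested genes lower and 0 higher. The 2 of 9 in DN1 are near the 17% of all genes called lower there. With genes at the floor set to their bound their medians were -4.20, -8.88 and -8.47 in log2FC, and 6 of the 9 were at the floor in DN2a and in DN2b. *BC100530*, *Stfa3* and *Stfa2l1*, myeloid stefins that lie in a cluster of near-identical copies and are uncertain in counts of this kind, had 0 counts in both DN2b libraries. On a floor of 3 counts per library they were at least 1010-fold lower than the control (*BC100530*), at least 662-fold (*Stfa3*) and at least 645-fold (*Stfa2l1*), and without control R1, which held the most, at least 476-fold, 390-fold and 303-fold. Without either DN2b library these 3 calls were lost, with adjusted p between 0.0703 and 0.0975 (edgeR).

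The granule serine proteases, a list that includes those cathepsin C activates, split in direction. Of 13 tested, 6 were higher and 5 lower in DN1 than in the control, 3 and 6 in DN2a, and 2 and 7 in DN2b, with medians of -0.66, -2.05 and -1.64 when genes at the floor were set to their bound. *Gzma*, granzyme A of cytotoxic lymphocytes, rose from 0.242 ± 0.215 CPM (SD, n = 4) in the control to 3346 ± 1148 (SD, n = 2) in DN2b (log2FC 13.86 ± 0.85 SE, adjusted p = 1.74e-05, edgeR, and 14.53 without control D1). Neutrophil *Elane* had 0 counts in both DN2b libraries against 2383 ± 3104 CPM in the control (844 without D2), and *Prtn3* was at 1.14 ± 0.757 against 2166 ± 1403 CPM (log2FC -10.91, adjusted p = 0.000512, edgeR, and -11.80 without DN2b replicate 2). In DN2b over DN1, 1 gene of the list was higher and 2 were lower. The 2 were *Mcpt4*, a mast cell chymase, at 466 ± 471 CPM in DN1 and 0.69 ± 0.599 in DN2b (adjusted p = 0.049, edgeR), and *Prtn3* (63.9 ± 68.0 and 1.14 ± 0.757 CPM, adjusted p = 0.0386, edgeR). Both calls were lost without DN1 replicate 1 (log2FC -7.61 and -3.81, adjusted p = 0.198 and 0.156, edgeR) and without either DN2b library (adjusted p between 0.16 and 0.322). *Elane* and *Prtn3* are also in the list of neutrophil markers.

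Class II antigen presentation is the pathway that cathepsins S and L serve. Of its 10 tested genes 3, 3 and 5 were lower and 0, 0 and 1 higher in DN1, DN2a and DN2b. Over all genes 17%, 24.3% and 22.5% were called lower, so the 3 of 10 in DN1 and DN2a are not far from those shares. The medians of the list were -2.63, -2.51 and -3.44. The control spread exceeded its mean for each of *H2-Eb1* (92.1 ± 150 CPM), *H2-Aa* (146 ± 244) and *H2-Ab1* (93.2 ± 152). In DN2b they were at 1.99 ± 0.452, 3.28 ± 1.33 and 2.29 ± 0.131 CPM (adjusted p = 0.0436, 0.0387 and 0.0444, edgeR). Control D2 carried these means, and without it they were 17.1, 23.9 and 17.2 CPM, and the log2FC went from -5.53, -5.48 and -5.34 to -3.09, -2.86 and -2.90 (adjusted p = 0.054, 0.0283 and 0.0518, edgeR). All 3 calls were lost without either DN2b library, with adjusted p between 0.133 and 0.195, and those of *H2-Eb1* and *H2-Ab1* also without control R1 (0.0516 and 0.0517). Between the DN stages none of the 7 lists had a gene past the threshold, except for the 3 granule proteases in DN2b over DN1.

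**Figure D4:**
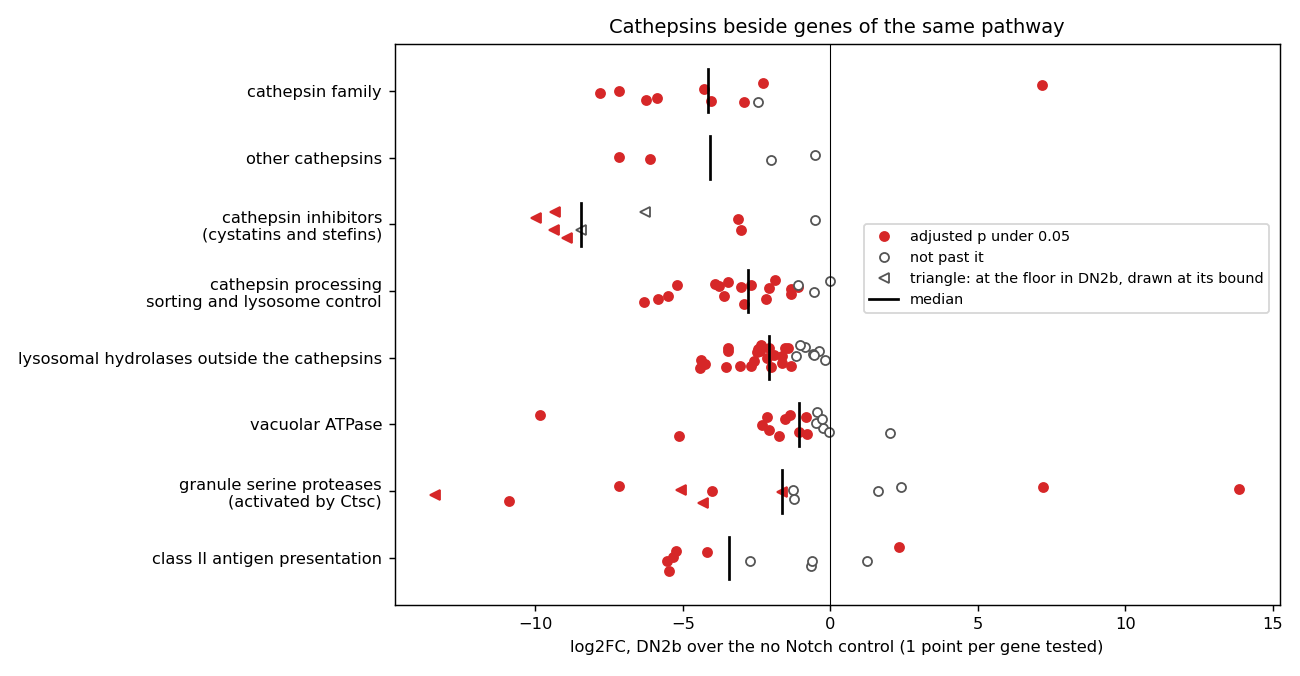
log2FC in DN2b over the no Notch control for each tested gene of the family and of 7 lists of related genes, 1 point per gene, with the list median as a bar. Triangles are genes at the floor in DN2b, drawn at their bound. The family's median of -4.16 lies left of those of the processing, hydrolase, pump, granule protease and class II lists. It is close to the -4.08 of the other cathepsins and right of the -8.47 of the inhibitors. The granule protease median is drawn at the bound of 1 gene, and as fitted it was -4.01. *Ctsw* lies right of 0 and the rest of the family left of it. The granule protease, pump and class II lists have genes on both sides of 0.

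Levels between members were compared per kilobase of the principal transcript (GENCODE vM21). After *Ctsd*, *Ctsc* came next by mean in each DN stage, at 57.6, 65.4 and 82.8 CPM per kilobase, whereas by coding length *Ctsb* had the higher mean in each stage (143, 120 and 155 against 104, 118 and 149 CPM per coding kilobase for *Ctsc*). *Ctsz*, *Ctsa*, *Ctss* and *Ctsb* followed between 11.7 and 44.5, and their order changed with the stage and with the length used. *Ctsw* was at 9.54, 10.9 and 9.62 and *Ctsl* between 2.40 and 6.75, the latter understated where its annotated transcript of 6168 bases is longer than the RNA in these cells. By mean *Ctse* and *Ctsh* were last in all DN stages, though in DN1 replicate 1 *Ctse* (3.45 CPM per kilobase) stood above *Ctsl* (1.72). In the control the means ran from 4057 CPM per kilobase for *Ctsd* through 2766 for *Ctss*, 1951 for *Ctsb* and 981 for *Ctsl* to 0.065 for *Ctsw*, and with coding length in place of transcript length *Ctsb* came first in each control library. The control means follow mainly the libraries with high totals, and by mean the order was *Ctsd*, *Ctss*, *Ctsb*, *Ctsl*, *Ctsz*, *Ctsc*, *Ctsa*, *Ctsh*, *Ctse* and *Ctsw*. Within libraries *Ctsd* came first in D1, R1 and R2 and *Ctss* in D2, *Ctsb* stood above *Ctss* in R1, and *Ctsl* was below *Ctsz* and *Ctsc* in D2 and R2. The ranges of neighbours in the order by mean overlapped, except between *Ctsc* and *Ctsa*, *Ctsh* and *Ctse*, and *Ctse* and *Ctsw*.

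By the correlation of log2(CPM + 0.5) over the 10 libraries, the gene most like *Ctsb* was *C1qa* (r = 0.998), a complement component of macrophages. The closest for *Ctsa* was *Myoz1* (0.998), for *Ctsd* *Arhgap22* (0.997), for *Ctsc* *Agpat9* (0.994), for *Ctss* *Itfg3* (0.994), for *Ctsh* *Ms4a6d* (0.993), for *Ctsz* *Lonrf3* (0.993), for *Ctsl* *Cd36* (0.992), for *Ctsw* *Rpl31-ps12* (0.996) and for *Ctse* *Gpr183* (0.982). The second closest were *Stx7* for *Ctsb*, *Stac2* for *Ctsa*, *AU022793* for *Ctsd*, *Atf3* for *Ctsc*, *Sgpl1* for *Ctss*, *Rhov* for *Ctsh*, *Depdc7* for *Ctsz*, *Acp2* for *Ctsl*, *Gm5643* for *Ctsw* and *Tmc8* for *Ctse*. The libraries fall into a control set and a DN set, and r over all 10 mostly describes that gap. It is given as a description.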

How the data were processed

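RNA-seq was analysed for 10 mouse libraries (2 each of DN1, DN2a and DN2b and 4 of the no Notch control). Per the labels and the study's methods, the authors made stranded total RNA libraries and mapped 36 bases from the start of each read 1 on mm10 using TopHat. Reads were tallied by htseq-count (HTSeq 0.6.1p1, intersection-strict), and the authors deposited these raw counts by gene symbol. The gene annotation and the strand setting of the counting are not given in the sources used here. The 5 summary lines of each library were dropped. Reads aligned to more than 1 place, 1 of those lines, were between 16.4% and 30.1% of the reads tallied.

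The 12221 of 24062 genes that reached 1 CPM in 2 or more libraries were fitted in 1 model of 4 groups by the quasi-likelihood test of edgeR 4.0.16 (R 4.3.3, TMM scaling, prior count 0.125). P-values were adjusted by Benjamini and Hochberg's method across those genes, with a threshold of 0.05. CPM values are TMM-scaled, and the SE of a log2FC is taken from its F value. Groups came from the sample labels. The scripts were tested on simulated counts. Promoters were RefSeq's on GRCm38.p6, and gene coordinates and lengths were those of GENCODE vM21 on mm10. Summaries and figures were made in Python 3.11.15 (pandas 2.3.3, matplotlib 3.10.9).

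The members, the gene lists and the tests were chosen with earlier results of these data known. The genes named are the 10 members, up to 3 genes per pathway list with the largest log2FC in DN2b over the control and up to 2 in DN2b over DN1 (past the threshold, mean of 5 CPM or more in the higher group), the leading gene of a marker list, and the 2 genes most like each member. A gene that this rule names is not reported here. Defining markers, *Klrd1*, *Klrb1c*, *Tfeb* and *Tfe3* were added after values were seen. The pathway and marker lists were described by counts and medians only.

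Alternatives were DESeq2 1.42.0, library size only, no filter, filterByExpr, only the groups compared, leaving out 1 library at a time, a prior count of 2, glmTreat beyond a 2-fold change, controls restricted to the D or to the R libraries, the 6 DN libraries with and without the year as a replicate block, and totals with the summary lines. Control libraries D1 and R1 or D2 and R2 alone were added after seeing the data. The pairing of DN libraries comes from the study's methods, by which all 3 stages were sorted from each LSK replicate, and DN2a and DN2b share their label dates while DN1 shares their years. Deviations from the group means correlated within the year at 0.072 between DN1 and DN2a, 0.222 between DN1 and DN2b and 0.397 between DN2a and DN2b over all genes tested, and the block was kept as an alternative. The p-values measure the spread between these libraries.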

Additional observations from a re-analysis of the deposited data

How the results depend on the processing

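When each library was left out in turn, the count of members called against the control ran from 8 to 9 in DN1, 8 to 10 in DN2a and 8 to 10 in DN2b, and under the other alternatives run from 9 to 10. With the 6 DN libraries alone, the number of members called between DN stages was 0 with the year as a replicate block and 0 without it, and the block changed no call of a member. With the summary lines kept in the totals, the share of gene reads taken by all 10 members was 0.0819% in DN1, 0.0659% in DN2a and 0.0694% in DN2b, since the total was larger. Of the values of single members, 1157 kept their direction and side of the threshold, 9 lost their call, 5 gained one and 26 changed sign. The lost and gained calls are those of *Ctsd* and *Ctse* given above.

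All 26 changes of sign were between DN stages, where no member passed the test. With library size only, the log2FC was -0.016 for *Ctsc* and -0.14 for *Ctsd* in DN2a over DN1, and -0.071 for *Ctsb*, -0.089 for *Ctsd*, -0.14 for *Ctsh*, -0.012 for *Ctss* and -0.15 for *Ctsw* in DN2b over DN1. Leaving out each library in turn gave ranges in DN2a over DN1 of -0.12 to 0.45 for *Ctsc*, -0.015 to 0.14 for *Ctsd*, -0.27 to 0.87 for *Ctsw* and -0.67 to 0.33 for *Ctsz*. In DN2b over DN1 these ranges were -0.061 to 0.94 for *Ctsc*, -2.01 to 1.18 for *Ctse*, -7.48 to 2.28 for *Ctsh*, -0.44 to 1.11 for *Ctss*, -0.45 to 0.70 for *Ctsw* and -0.81 to 0.19 for *Ctsz*. In DN2b over DN2a they were -0.24 to 0.75 for *Ctsc*, -0.049 to 0.14 for *Ctsd*, -4.49 to 7.46 for *Ctsh* and -0.48 to 0.20 for *Ctsw*. Few counts stood behind *Ctsh* in the DN libraries (0 to 44), *Ctsw* in the control (1 to 3) and *Ctse* in the DN2a and DN2b libraries (13 to 29), and each stage had 2 libraries.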
